A study of Mus musculus with 6 samples.

Results

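The 10 genes described here encode the apolipoproteins and the lipoprotein assembly and remodelling proteins Apoa1, Apoa4, Apoa5, Apob, Apoc3, Apoe, Pltp, Mttp, Lcat and Lipc. They were chosen by gene name in a count table of 25904 genes, and each name matched 1 row. Liver polyadenylated RNA was sequenced from C57BL/6J mice heterozygous for Ptprd (Ptprd+/-, here Het, n = 3) and from Ptprd+/+ mice (here WT, n = 3). Ptprd encodes a receptor-type tyrosine phosphatase, and by its title the series asks about the impaired phosphatase in hepatic metabolic syndrome. The sources used here do not state how the Ptprd allele was made, nor the age, sex or feeding of the mice. The labels name 3 liver samples per genotype without saying that each came from its own mouse. The p-values set the genotype difference against the spread between these samples, which may be technical.

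The liver packs triglyceride and cholesteryl ester into very low density lipoprotein (VLDL) around apolipoprotein B, a step that needs the microsomal triglyceride transfer protein encoded by Mttp. It also secretes apolipoprotein A-I, which takes up lipid at the cell surface to form high density lipoprotein (HDL). In the blood the particles are remodelled by lipases, by lecithin-cholesterol acyltransferase, which esterifies HDL cholesterol, and by the phospholipid transfer protein encoded by Pltp. The smaller apolipoproteins exchange between particles and steer lipolysis and uptake.

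Total counts were 38918379 to 72954187 in Het libraries and 37924266 to 48526395 in WT libraries. Levels below are in CPM, read counts set relative to the scaled total of their library. Fold changes give Het relative to WT, with the standard error (SE) of the log2 value. Ptprd had 54.1, 78.1 and 63.4 CPM in Het, against 128, 127 and 132 CPM in WT, so each library matched its genotype label. Among hepatocyte markers Alb, which encodes albumin, had 144170.0, 118410.0 and 121110.0 CPM in Het, against 109460.0, 100040.0 and 117400.0 CPM in WT, so the tissue matched its label. The circadian clock genes set Het 2 and Het 3 apart from the other libraries, with Dbp, a clock output transcription factor, at 129 and 122 CPM there, 13.5 CPM in Het 1 and 14.4 to 29.6 CPM in WT. In bulk liver RNA, fewer cells of a type and less RNA per cell cannot be told apart.

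All 10 genes passed the filter on low counts, and none was called between the genotypes. With edgeR's quasi-likelihood test the smallest adjusted p among them was 0.673, for Pltp, and 0 of the 14606 genes tested (0%) passed an adjusted p of 0.05. In limma-voom 0 genes (0%) and in DESeq2 61 of 11840 genes (0.515%) passed, and none of the 10 was among them. An unadjusted edgeR p under 0.05 was reached by 1 of the 10, Pltp, which was lower in Het, against 7.15% of all genes tested in either direction, 3.77% on the lower side and 3.39% on the higher side. In limma-voom Pltp and Lcat were under 0.05 unadjusted, against 7.33% of all genes. Het and WT values did not overlap for 2 of the 10, Apoe and Lcat, both higher in Het. Over all genes tested 13.9% did not overlap, 7.15% with all Het above all WT and 6.72% with all Het below all WT. The log2 fold changes of the 10 were above 0 in 6 and below 0 in 4, with a median of 0.13, beside -0.00 for all genes tested. Without Het 1 the median of the 10 was -0.03.

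**Figure D1:**
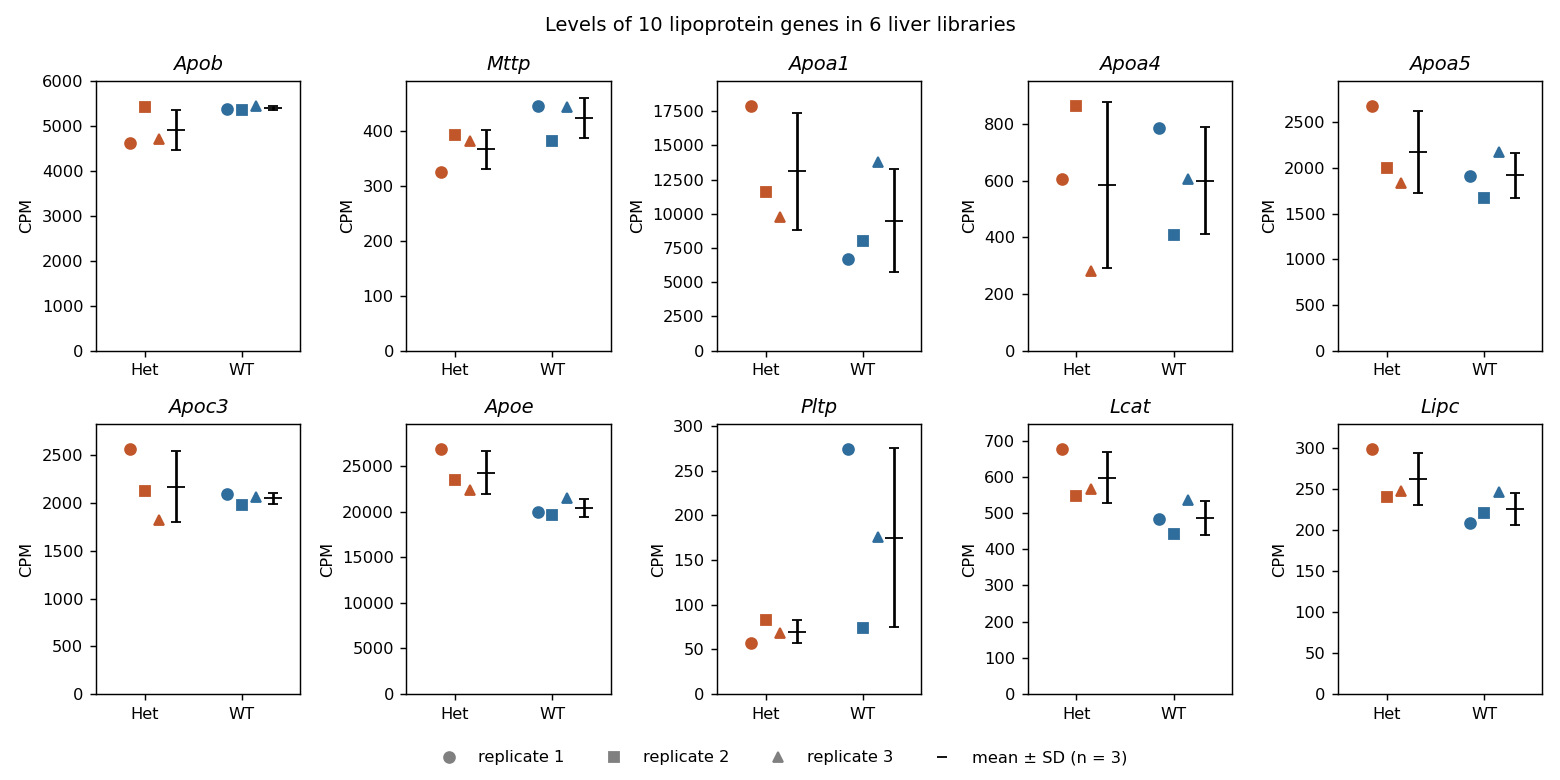
CPM of the 10 genes in each library, Het left and WT right, 1 panel per gene with an axis from 0 and the mean ± SD (n = 3) beside the points. Pltp has 2 WT libraries, at 275 and 176 CPM, above every Het library, while the third WT library at 73.8 CPM lies among them.

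Pltp showed the widest difference of the 10. The protein moves phospholipid between particles and helps to enlarge HDL, and the gene is a known target of the liver X receptors (LXR). The gene (ENSMUSG00000017754) spans 164839518 to 164857711 of chromosome 2 in mm10, the build of all coordinates here. Its level was 57.5, 83.1 and 68.1 CPM in Het, against 275, 73.8 and 176 CPM in WT. The Het libraries lay close together, with 69.6 ± 12.8 CPM, while WT averaged 175 ± 100.5 CPM (SD, n = 3 each). WT 2 fell inside the Het range, so the genotypes overlapped. The gene was 2.51-fold lower in Het, a log2 fold change of -1.33 (SE 0.40, 95% interval -2.25 to -0.41), with an edgeR adjusted p of 0.673 and a DESeq2 adjusted p of 0.374. Without WT 1 the log2 fold change was -0.84 and without WT 2 it was -1.69. In edgeR without a filter on low counts Pltp passed, with an adjusted p of 0.0186. Its unadjusted p of 0.0104 ranked 222 among the genes tested.

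Pltp overlaps Ctsa, the cathepsin A gene on the opposite strand. The libraries were strand-specific, but the strand setting of the counting is not given, so how reads of the overlap were counted is not known. Ctsa had 183, 142 and 139 CPM in Het, against 120, 115 and 139 CPM in WT, with the highest value in Het 1. The part of overlap reads in the Pltp difference was not tested. Kupffer cells and other macrophages also make Pltp. The 12 macrophage markers, of which none was at 0 in all libraries, summed to 467 to 853 CPM in Het, against 633 to 971 CPM in WT. By library the sums were 853, 467 and 770.5 CPM in Het, against 971, 633 and 789 CPM in WT. WT 1 was highest in both the sum and Pltp. Het 1 had the second highest sum and the lowest Pltp level. Het 2 had the lowest sum and the highest Pltp level of the Het libraries. Marco, a macrophage scavenger receptor, had 37.1, 10.9 and 28.1 CPM in Het, against 93.5, 69.9 and 53.8 CPM in WT, without overlap (edgeR adjusted p 0.648, and 0.00552 without a filter on low counts). The defining Kupffer marker Clec4f had 167, 104 and 147 CPM in Het, against 136, 96.2 and 156 CPM in WT, which overlapped. The part of macrophage RNA in the Pltp difference was not tested.

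The bases just before the RefSeq start of 4 genes are shown, Pltp and Lcat because they stood furthest to either side of equality by unadjusted p, and Apoa1 and Apoa4 because these neighbours of one gene cluster had different patterns over the libraries. Each run holds the 250 bases before the start on the gene's own strand, from RefSeq's GRCm38.p6 table, at chr2:164857709-164857958 (minus strand) for Pltp, chr8:105943403-105943652 (minus strand) for Lcat, chr9:46228380-46228629 (plus strand) for Apoa1 and chr9:46240594-46240843 (plus strand) for Apoa4. Capitals mark matches to the motifs searched on both strands.
Pltp: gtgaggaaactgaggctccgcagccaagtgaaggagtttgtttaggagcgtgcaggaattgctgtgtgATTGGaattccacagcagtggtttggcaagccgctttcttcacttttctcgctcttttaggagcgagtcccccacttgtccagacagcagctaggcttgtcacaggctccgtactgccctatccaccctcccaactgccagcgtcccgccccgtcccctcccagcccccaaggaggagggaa
Lcat: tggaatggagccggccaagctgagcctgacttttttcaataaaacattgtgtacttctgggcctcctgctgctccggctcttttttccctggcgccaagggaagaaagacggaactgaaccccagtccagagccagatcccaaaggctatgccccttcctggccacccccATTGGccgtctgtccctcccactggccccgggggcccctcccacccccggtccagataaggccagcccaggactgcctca
Apoa1: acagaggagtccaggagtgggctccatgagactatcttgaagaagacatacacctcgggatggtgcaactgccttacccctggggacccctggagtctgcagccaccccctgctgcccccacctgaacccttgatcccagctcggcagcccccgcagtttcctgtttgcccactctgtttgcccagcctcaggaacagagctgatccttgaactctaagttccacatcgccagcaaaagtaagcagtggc
Apoa4: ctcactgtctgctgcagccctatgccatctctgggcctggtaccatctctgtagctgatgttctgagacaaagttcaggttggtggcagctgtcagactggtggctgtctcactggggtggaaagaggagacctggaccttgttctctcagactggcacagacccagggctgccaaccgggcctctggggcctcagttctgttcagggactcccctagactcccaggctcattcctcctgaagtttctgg
The motifs were the TATA box TATAAA, the CCAAT box CCAAT, the nuclear receptor half-site AGGTCA, and that half-site repeated with 1 or with 4 bases between the copies. Pltp and Lcat each held 1 CCAAT box, on the opposite strand, 178 to 182 and 76 to 80 bases before the start, and Apoa1 and Apoa4 held none of the motifs. These RefSeq starts are not the gene starts of the count table. They are 164857708 against 164857711 for Pltp and 105943402 against 105943382 for Lcat. For Apoa1 they are 46228630 against 46228580, and for Apoa4 46240844 against 46240696. The motif search holds for the RefSeq starts alone. A CCAAT box stood in 33.8% of 32851 windows of this length, a TATA box in 12.4% and the half-site in 14.0%. Apoe, Apoa5 and Lipc had more than 1 window, for different RefSeq starts, while the shares count single windows. Of the 9 genes with a window, Apoe, Apoa5 and Apob held a TATA box in at least 1 and Lipc the half-site. The Apoe TATA box stood only in chr7:19698622-19698871 and the Lipc half-site only in chr9:70934809-70935058, both inside the gene. The windows before the outermost start of Apoe and Lipc held neither. No window of the 9 genes held either repeat, found in 0.0335% and 0.0152% of all windows. Apoc3 had no window in the table.

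Apob and Mttp, the pair that builds VLDL, were slightly lower in Het. Apob, the structural protein of VLDL and low density lipoprotein, had 4619, 5433 and 4701 CPM in Het, against 5384, 5359 and 5456 CPM in WT. The WT libraries had a coefficient of variation of 0.929%, the least of the 10 genes, and Het 2 lay inside their range. Its log2 fold change was -0.14 (SE 0.13, 95% interval -0.43 to 0.16, edgeR adjusted p 0.823), and -0.21 without Het 2. Mttp had 326, 393 and 382 CPM in Het, against 447, 382 and 445 CPM in WT, and WT 2 lay among the Het libraries. The log2 fold change was -0.21 (SE 0.12, 95% interval -0.48 to 0.07, edgeR adjusted p 0.728), and -0.14 without Het 1. Both genes were lowest in Het 1. The ratio of Mttp to Apob counts within a library, which does not depend on library scaling, was 0.0748 ± 0.00572 in Het and 0.0786 ± 0.00636 in WT (SD, n = 3 each; exact permutation p 0.4, two-sided, and 0.514 after adjustment over the 9 ratios computed, where 0.1 is the smallest p that 3 against 3 allows).

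Apoe and Lcat were the 2 genes with all Het libraries above all WT libraries. Apoe, a ligand for the uptake of remnant particles, lies on chromosome 7 at 19696109 to 19699188. It had 26938, 23524 and 22440.0 CPM in Het, against 20031, 19653 and 21516 CPM in WT. The gap between the genotypes was narrow, from 22440.0 CPM in Het 3 to 21516 CPM in WT 3, and the log2 fold change was 0.25 (SE 0.16, 95% interval -0.11 to 0.62, edgeR adjusted p 0.746, DESeq2 adjusted p 0.659), and 0.17 without Het 1. Lcat, the enzyme that esterifies HDL cholesterol, lies on chromosome 8 at 105939551 to 105943382. It had 677, 547 and 565 CPM in Het, against 484, 442 and 535 CPM in WT. Het 2 and WT 3 were the closest libraries across the genotypes, and the log2 fold change was 0.29 (SE 0.13, 95% interval -0.00 to 0.59, edgeR adjusted p 0.694, DESeq2 adjusted p 0.633). Without Het 1 it was 0.19.

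Lipc, the hepatic lipase gene, whose product hydrolyses lipid of remnants and HDL, followed Lcat closely. It had 299.6, 240.15 and 248 CPM in Het, against 209, 221 and 247 CPM in WT. Het 2 lay below WT 3, so the genotypes overlapped, and the log2 fold change was 0.22 (SE 0.12, 95% interval -0.06 to 0.50, edgeR adjusted p 0.727), and 0.11 without Het 1. Lcat counts were 2.26, 2.28 and 2.27 times those of Lipc in the Het libraries and 2.32, 2.00 and 2.165 times in the WT libraries. Among pairs of the 10 genes, Apoe with Lcat and Apoe with Lipc had the most similar profiles, each with a root mean square difference of 0.061 between their log2 CPM values centred on each gene's mean over the 6 libraries. Pltp with Apoa1 was the least similar pair, at 1.115. Some of the 208 other genes of the gene lists were more similar to these genes than any pair of the 10. Alb was at 0.047 from Apoe and 0.036 from Lcat, and the lipase maturation factor gene Lmf1 at 0.041 from Lipc.

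**Figure D2:**
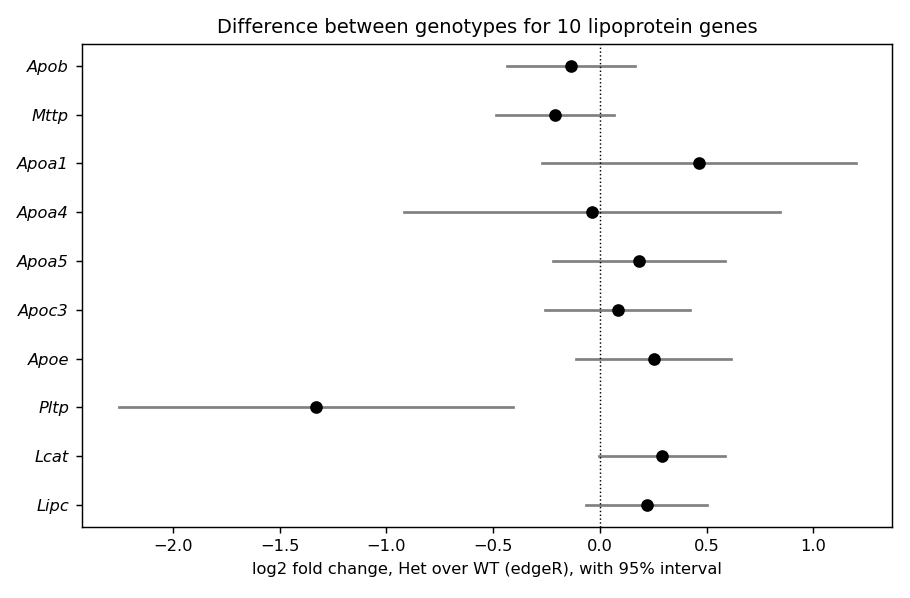
Log2 fold change, Het over WT, of the 10 genes with the 95% interval of edgeR's fit; the dotted line marks no difference. The Pltp interval, -2.25 to -0.41, is the one interval of the 10 that does not reach 0, before adjustment for multiple testing.

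Apoa1, Apoc3, Apoa4 and Apoa5 lie in 1 cluster of 43.3 kb on chromosome 9, from 46228580 to 46271919. Gaps of 2.47, 5.06 and 25.2 kb separate them in that order, and Apoc3 is read from the minus strand and the other 3 from the plus strand. The 4 neighbours did not share 1 profile over the libraries. Apoa1, the main structural protein of HDL, had 17902, 11596 and 9768 CPM in Het, against 6690.5, 7994 and 13778 CPM in WT. Het 1 was the highest library and WT 3 the second highest, above Het 2 and Het 3, so the genotypes overlapped widely. The log2 fold change was 0.46 (SE 0.32, 95% interval -0.27 to 1.20, edgeR adjusted p 0.759), and it was 0.16 without Het 1, 0.27 without WT 1 and 0.83 without WT 3.

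Apoc3, an inhibitor of lipoprotein lipase and of remnant uptake, sits next to Apoa1 and varied far less. It had 2570.0, 2124 and 1826 CPM in Het, against 2100, 1982 and 2069 CPM in WT, and the Het libraries held both the highest and the lowest value. The log2 fold change was 0.08 (SE 0.15, 95% interval -0.26 to 0.42, edgeR adjusted p 0.912), and -0.06 without Het 1 and 0.20 without Het 3. Apoa5, an activator of triglyceride hydrolysis by lipoprotein lipase, had 2680.5, 2002 and 1838 CPM in Het, against 1907, 1673 and 2170 CPM in WT. Its log2 fold change of 0.18 (SE 0.17, 95% interval -0.22 to 0.58, edgeR adjusted p 0.823) was -0.00 without Het 1, 0.10 without WT 2, 0.29 without Het 3 and 0.28 without WT 3. The ratio of Apoa1 to Apoc3 counts was 6.97, 5.46 and 5.35 in the Het libraries and 3.19, 4.03 and 6.66 in the WT libraries, lowest in WT 1 and highest in Het 1, and the genotypes overlapped (exact permutation p 0.3, two-sided, and 0.514 adjusted over 9 ratios).

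Apoa4, which in mice is made in liver and intestine and rides on triglyceride-rich particles and HDL, had its own pattern. It had 608, 866 and 282 CPM in Het, against 786, 409 and 607 CPM in WT. Het 2 and Het 3, which were alike in the clock gene Dbp, held the highest and the lowest Apoa4 value of all 6 libraries. The part of the circadian clock in the Apoa4 pattern was not tested. The highest library was 3.07-fold above the lowest, second to Pltp at 4.78-fold, while for Apob it was 1.18-fold. The log2 fold change was -0.04 (SE 0.38, 95% interval -0.92 to 0.84, edgeR adjusted p 0.989), the widest interval but for that of Pltp. Of the genes outside the cluster, 10 flanking genes had 0 called by edgeR or DESeq2 and a median of -0.07 on the log2 scale, and 2 of them were lower in every Het library than in any WT library, against 6.72% of all genes tested. One of these, Rnf214, had 17.1, 17.8 and 16.4 CPM in Het, against 20.8, 20.9 and 22.7 CPM in WT (edgeR adjusted p 0.654). Bace1, a secretase gene also beside the cluster, had a log2 fold change of -0.20 with overlap (edgeR adjusted p 0.727).

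Het 1 stood at an end of the range for most of the 10 genes. It was the highest of the 6 libraries in Apoa1, Apoa5, Apoc3, Apoe, Lcat and Lipc and the lowest in Apob, Mttp and Pltp, 9 of the 10 genes. Over all genes tested Het 1 was at an end in 47.1%, more than any other library, the others ranging from 26.4% to 34.6%. The 10 genes took 5.31, 4.67 and 4.30% of all counts in Het and 3.85, 4.03 and 4.63% in WT, and these shares overlapped. Het 1 had the smallest scaling factor, 0.937, with those of the other libraries between 0.985 and 1.06. Its hepatocyte marker sum was also the highest, with 160000 to 194000 CPM in Het, against 139000 to 161000 CPM in WT over the 12 markers. Of these markers 8 were above 0 and 4 below 0 in log2 fold change, with a median of 0.20. All Het lay above all WT for 3 of the 12, against 7.15% of all genes tested. Ttr, the transthyretin gene, had 6636, 6520.1 and 7058.5 CPM in Het, against 5186, 4889 and 5934 CPM in WT, and Ahsg, which encodes fetuin-A, had a log2 fold change of 0.39, both without overlap (edgeR adjusted p 0.694 and 0.712). The part of these library differences in the results was not tested.

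**Figure D3:**
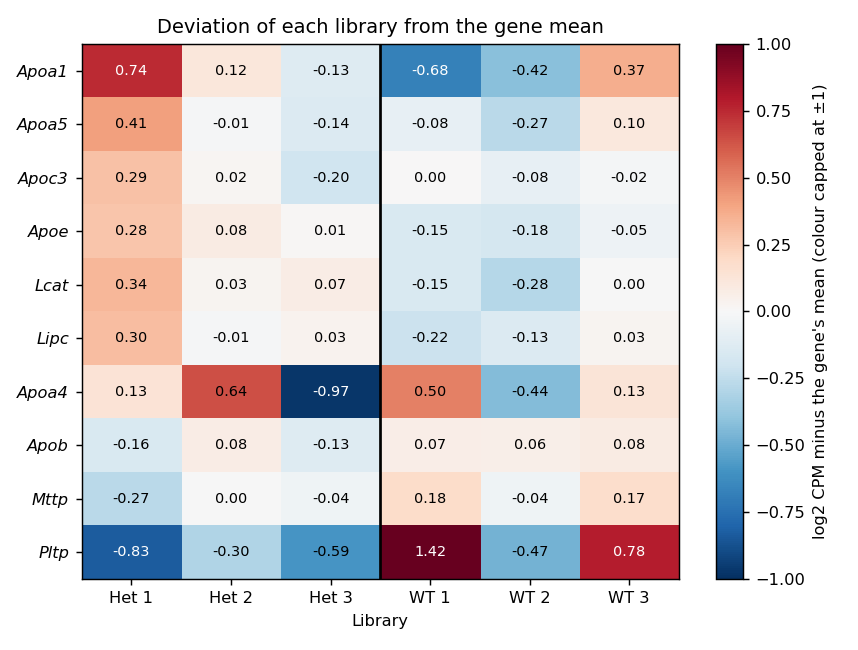
Log2 CPM of each gene minus its mean over the 6 libraries, with Het libraries left of WT libraries and the colour capped at 1 in either direction. Het 1 is the highest library for 6 genes and the lowest for 3, and Pltp ranges from -0.83 in Het 1 to 1.42 in WT 1.

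Levels per length were compared with CPM divided by the length of the longest principal transcript in GENCODE M21, whose gene coordinates were those of the count table for all 10. Apoe was the most abundant, with 17260.0 ± 1667 CPM per kb in Het and 14490.0 ± 699 in WT (SD, n = 3 each). Apoa1 followed with 12650.0 ± 4123 in Het and 9167 ± 3645 in WT, and its library values overlapped those of Apoe. Apoc3, at 4132 ± 712 in Het and 3898 ± 115.5 in WT, and Apoa5, at 864 ± 177.5 in Het and 762 ± 98.9 in WT, stood apart from both neighbours in the order. Lcat, Apob and Apoa4 averaged 444.5, 353 and 322.5 CPM per kb in Het and 363, 387.5 and 331 in WT, and their library ranges overlapped, so their order is not settled. Lipc had 137 ± 16.8 in Het and 117.5 ± 10.3 in WT, Mttp 92.7 ± 9.08 in Het and 107 ± 9.27 in WT, and Pltp 31.2 ± 5.77 in Het and 78.6 ± 45.2 in WT. Pltp ranged from 25.8 to 123.5 CPM per kb over the libraries and overlapped Mttp and Lipc. Lipc, at 108.6 to 156.1 over the libraries, also overlapped Apoa4 and Mttp. The places of Lipc, Mttp and Pltp in the order are therefore not settled either. Apob and Lcat were the one pair whose order by mean was not the same in both genotypes.

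**Figure D4:**
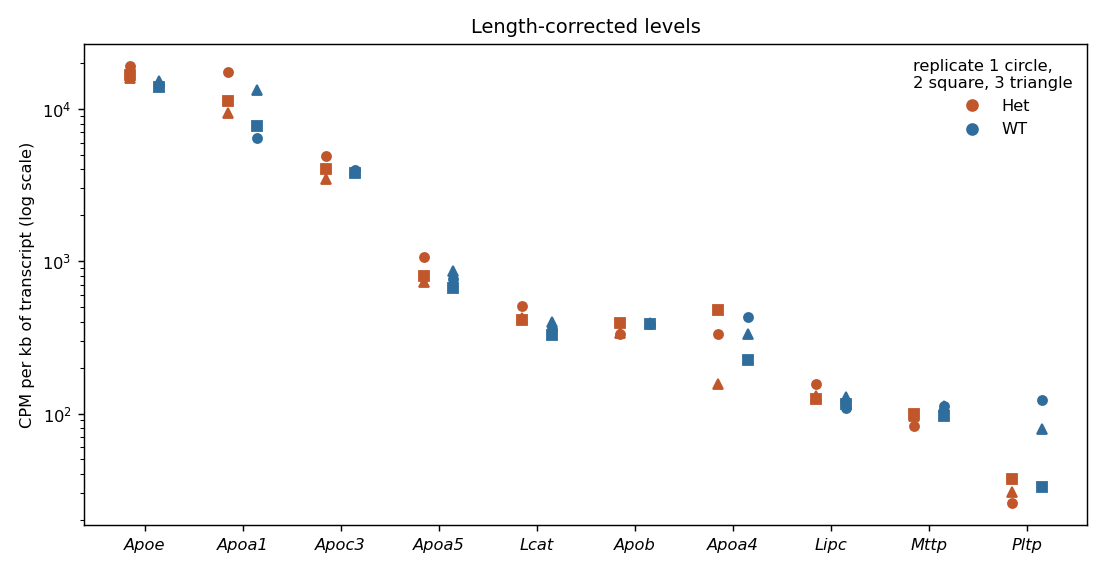
CPM per kb of transcript on a log axis, with Het left of WT for each gene and 1 point per library. Apoe and Apoa1 lead in both genotypes, and the Pltp points in WT are spread from 33.1 to 123.5 CPM per kb while those in Het lie between 25.8 and 37.3.

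By the same measure of likeness, the 2 genes most like Pltp among 208 other genes of the gene lists were Slc4a1, a red cell anion exchanger, and Cyp7a1, the rate-limiting enzyme of bile acid synthesis, with root mean square differences of 0.442 and 0.457 over the 6 libraries. These are wide, against 0.329 and 0.336 for Apoa4 with Cps1, a urea cycle enzyme, and Cebpb, a transcription factor. Slc4a1 had at most 0.509 CPM in any library, so its profile rests on few counts. Cyp7a1 had 96.3, 166 and 139 CPM in Het, against 235, 144 and 221 CPM in WT, with WT 2 again inside the Het range.

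Among other LXR targets, the lipid desaturase gene Scd1 had 1382, 3248 and 3714 CPM in Het, against 21540, 3886 and 8320 CPM in WT. As in Pltp, WT 1 was the highest library, then WT 3. The Het libraries lay below the WT libraries here, without overlap, but Het 3 was close to WT 2, and Het 1 stood well below Het 2 and Het 3. The part of LXR in the Pltp and Scd1 differences was not tested. Scd1 had a log2 fold change of -2.02 (SE 0.61, edgeR adjusted p 0.673), which was -1.13 without WT 1. Of the 12 LXR targets 10 were below 0 in log2 fold change, with a median of -0.14, and 0 passed edgeR or DESeq2. In edgeR without a filter on low counts Scd1 passed, with an adjusted p of 0.0119. Abca1, the exporter that loads lipid onto apolipoprotein A-I, had 117, 169 and 132 CPM in Het, against 172.5, 175 and 151 CPM in WT (edgeR adjusted p 0.729). The LXR alpha gene Nr1h3 had 146, 122 and 123 CPM in Het, against 122, 117 and 120.4 CPM in WT.

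In other parts of the pathway no gene passed edgeR's adjusted threshold. Of the 11 tested apolipoproteins outside the 10, 9 were above 0, and their median was 0.17. Apoa2, the second major HDL protein, had 9270.0, 7442 and 7454 CPM in Het, against 6768, 6047 and 7001 CPM in WT, without overlap (log2 fold change 0.29, edgeR adjusted p 0.723). Saa4, a constitutive HDL apolipoprotein, had 330, 269 and 314 CPM in Het, against 274, 252.5 and 209 CPM in WT (log2 fold change 0.31, edgeR adjusted p 0.694). The 10 neighbours of Apoe had a median of 0.08, with 0 genes called by either tool, and Apoc4 and Bcl3, a gene of an NF-kappaB regulator, had log2 fold changes of 0.17 and 0.44 (edgeR adjusted p 0.802 and 0.712).

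Of 17 genes for VLDL assembly and secretion, 3 had an unadjusted p under 0.05, all lower in Het, against 7.15% of all genes tested in either direction and 3.77% on the lower side. The median was 0.01. Sar1b, a small GTPase of the vesicles that carry large lipoproteins out of the endoplasmic reticulum, had 136, 161 and 148 CPM in Het, against 187, 169.9 and 177 CPM in WT. Ces1d, a lipase that frees stored triglyceride for VLDL, had 1700, 1430 and 1503 CPM in Het, against 1839, 1919 and 2143 CPM in WT. Both genes had all Het libraries below all WT libraries, and the edgeR adjusted p values were 0.693 and 0.685. They were the 2 of the 17 with this order, against 6.72% of all genes tested. In 1 of the 17 all Het lay above all WT, against 7.15% of all genes tested. The third, A1cf, which encodes the RNA-binding partner of Apob mRNA editing, was at -0.44 with overlap (edgeR adjusted p 0.694). P4hb, the partner subunit of the Mttp protein, had a log2 fold change of 0.07 (edgeR adjusted p 0.923).

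The 14 lipases and modulators had a median log2 fold change of 0.00 and the 15 genes of lipoprotein uptake one of -0.03. Lipa, lysosomal acid lipase, had 313, 280.1 and 276.5 CPM in Het, against 358, 307 and 406 CPM in WT, with overlap (log2 fold change -0.30, edgeR adjusted p 0.694). Lrp6, a Wnt co-receptor gene, had 48.7, 67.3 and 54.2 CPM in Het, against 73.7, 76.5 and 70.5 CPM in WT, without overlap (log2 fold change -0.37, edgeR adjusted p 0.685). Lmf1, a maturation factor of lipases, and Msr1, a scavenger receptor gene, had log2 fold changes of 0.20 and -0.21, both without overlap (edgeR adjusted p 0.723 and 0.724). In the list of 13 tested genes for lipid efflux and HDL formation the median was -0.10, and 0 genes had an unadjusted p under 0.05. Abca7, a phospholipid exporter gene, was at 0.25 (edgeR adjusted p 0.746).

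Among 30 transcription factors known to act on lipoprotein genes, 21 were above 0 in log2 fold change and the median was 0.12. EdgeR called 0 of them and DESeq2 called 1, lower in Het, against 0.515% of all genes in DESeq2. Nr1d1, the clock repressor REV-ERB alpha, had 17.6, 55.5 and 46.9 CPM in Het, against 9.49, 21.4 and 10.4 CPM in WT (edgeR adjusted p 0.654, and 0.0119 without a filter on low counts), with Het 1 inside the WT range. Clock, of the core clock, was at -0.66 without overlap (edgeR adjusted p 0.649). Creb3l3, the gene of CREBH, a liver factor known to drive Apoa4, Apoa5 and Apoc2, had 431, 388 and 374 CPM in Het, against 250.2, 317 and 341 CPM in WT, without overlap (log2 fold change 0.39, edgeR adjusted p 0.685), and was chosen after its values were seen. The 11 known targets outside the 10 had a median of 0.17, among them the ketone body enzyme gene Bdh1 at 0.43 and G6pc, of glucose release, at -0.67 (edgeR adjusted p 0.677 and 0.685). Hnf4a, a main activator of apolipoprotein genes, had a log2 fold change of 0.15 (edgeR adjusted p 0.878).

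Marker genes of other cells overlapped between the genotypes in their summed level, apart from the small enterocyte list. By log2 fold change, 10 of 12 macrophage, 7 of 10 leukocyte and 5 of 6 erythroid markers were below 0, the rest above. The medians of these lists were -0.14, -0.30 and -0.42, beside -0.00 for all genes tested. Those of the endothelial, stellate and cholangiocyte markers were -0.07, -0.08 and 0.04. Sums were 339 to 446 CPM in Het, against 365 to 422 CPM in WT for 8 sinusoidal endothelial markers, and 501 to 511 CPM in Het, against 461 to 551 CPM in WT for 9 stellate cell markers. Cholangiocyte markers summed to 45.4 to 55.6 CPM in Het, against 47.9 to 62.3 CPM in WT, leukocyte markers to 11.6 to 19.0 CPM in Het, against 17.7 to 26.7 CPM in WT, and erythroid markers to 111 to 165 CPM in Het, against 99.7 to 269 CPM in WT. Enterocyte markers, relevant because intestine also makes Apob, Apoa4 and Mttp, summed to 143 to 193 CPM in Het, against 123 to 138 CPM in WT. Nearly all of that sum was Fabp2, which hepatocytes also express, and Lgals4, while Vil1 was at most 0.428 CPM and Cdh17 at most 0.0823 CPM. Of the adipocyte markers, which summed to 5.39 to 6.43 CPM in Het, against 5.86 to 6.66 CPM in WT, Adipoq was at most 0.0851 CPM and Plin1 at most 0.0195 CPM. Of the 2 markers per list with the smallest p, the log2 fold changes were -0.62 for Timd4 of macrophages, -0.14 and 0.09 for the endothelial Pecam1 and Clec4g, and -0.21 and -0.18 for the stellate Col3a1 and Dcn. They were -0.20 and 0.36 for the cholangiocyte Spp1 and Cldn7, -1.05 and -0.63 for the leukocyte Ms4a1 and Ptprc, 0.35 and -0.48 for the erythroid Alas2 and Hbb-bs, 0.38 and 0.19 for Fabp2 and Lgals4, and -0.10 for Fabp4 of adipocytes. None of these passed, and the part of other cell types in the results was not tested.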

How the data were processed

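Strand-specific TruSeq libraries of liver polyadenylated RNA, 3 per genotype, were analysed. The authors deposited a table of raw read counts per Ensembl gene, per the file headers. The submitters' processing notes name STAR 2.5.3a, HTSeq 0.6.1p1, cutadapt 1.10, DESeq2 1.16.1 and bcl2fastq 2.17.1.14, and the build mm10. For the strand setting, the multimapping reads and the annotation of the counting, the choice is not given in the sources used here. Normalized columns and a differential expression table, also from the authors, were not used, since the same comparison was fitted from the raw counts.

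Columns were matched to samples by the library names in the labels. Genes were filtered with edgeR's filterByExpr, which kept 14606 of 25904 genes and 99.955% of counts, and scaled by trimmed mean of M values (TMM). The genotypes were tested with edgeR 4.0.16 in R 4.3.3 (quasi-likelihood, two-sided, no covariate). P-values were adjusted by Benjamini-Hochberg over all genes tested, with a threshold of 0.05. SEs come from the F statistic. Log2 CPM used a prior count of 2. Alternatives were DESeq2 1.42.0, limma-voom (limma 3.58.1), other scalings and filters, the replicate number as a block and left-out libraries. Fits were first tested on simulated data. Every pair of libraries of a genotype differed by more than sampling noise.

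The 10 genes and all gene lists were chosen with earlier results of these data known. The genes named are the 10, Ptprd and, of each list, those past the threshold or else the 2 with the smallest unadjusted p. P4hb, A1cf, Nr1h3, Hnf4a, Creb3l3, Alb, Dbp, Clec4f, Ctsa and the genes named in the closing section outside that rule were chosen for their known role or after their values were seen. A few genes that the rule or the lists include are not reported here.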

Additional observations from a re-analysis of the deposited data

How the results depend on the processing

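Of the 10 genes, 7 kept the sign of their log2 fold change under all 15 alternatives. The exceptions were Apoa5 (-0.003 to 0.29 with 1 library left out) and Apoc3 (-0.06 to 0.196), both lowest and below 0 without Het 1, and Apoa4 (-0.429 to 0.296), at 0.296 without Het 3, 0.204 without WT 1 and 0.022 without Het 2 and Het 3. Of 39 other named genes 35 kept their sign. With 1 library left out Cldn7 ranged from -0.488 (without Het 3) to 0.632, Pecam1 from -0.287 to 0.021 and Clec4g from -0.009 to 0.165 (both turned without WT 1), and Hbb-bs from -0.788 to 0.003 (without WT 3). Cldn7 was at -0.512 without Het 2 and Het 3. DESeq2 called 61 genes, 1 of them in the gene lists. EdgeR without a filter called 73, of which 5, among them Scd1, Nr1d1 and Marco, were in the lists and 1, Pltp, was among the 10; the cause was not tested. With 1 library left out edgeR called 0 to 1 genes and 0 of the 10. The fit without Het 2 and Het 3 takes the spread from the WT libraries, since it has 1 Het library, and the median of the 10 was 0.37 there. With total counts as the only scaling the median of all genes was -0.05 and that of the 10 was 0.08.

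Deviations of libraries with the same replicate number correlated at -0.07, 0.12 and 0.15 across genes, and those of the other pairs at -0.30 to 0.175. Since deviations were taken from the mean of only 3 libraries, these values cannot settle whether the numbers pair the samples. With the number as a block edgeR called 0 genes, the median of the 10 was 0.12 and the Pltp value -1.17 (adjusted p 0.655). The common biological coefficient of variation over all genes tested was 18.5%. Among the 10 the coefficient of variation of the WT libraries ran from 0.929% for Apob to 57.45% for Pltp. With 3 libraries per genotype, the detection of small differences was limited by the spread between libraries.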

Other observations

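Apoc2, the cofactor of lipoprotein lipase, was listed at 1.21, 1.32 and 0.631 CPM in Het, against 0.803, 1.84 and 0.991 CPM in WT, while Apoc4 and Apoc1 of the same cluster had at least 567 CPM in every library. In GENCODE M21 Apoc2 overlaps Gm44805, a protein-coding gene on the same strand, so its level in this table is uncertain.

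Saa1, an acute phase apolipoprotein carried by HDL, had 38.7, 8.51 and 7.49 CPM in Het, against 12.6, 14.9 and 14.7 CPM in WT, and Saa2 had 26.8, 4.49 and 4.11 CPM in Het, against 7.51, 8.11 and 8.35 CPM in WT. In both genes Het 1 was the highest library and Het 2 and Het 3 were the lowest. These genes are near-identical copies that share reads, so their single values are uncertain. WT 1, the highest library in Pltp and Scd1, was also the highest in the fatty acid transporter gene Cd36, with 73.3, 100.8 and 71.9 CPM in Het, against 225, 83.6 and 52.9 CPM in WT.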
